A study of Mus musculus with 6 samples.

Results

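The genes described here are 47 mouse genes of actin-myosin contraction, of serum response factor (SRF) and of transforming growth factor beta (TGF-beta) signalling, out of 41819 genes in the table. They were chosen by name, 24 as actin-myosin genes with Srf and its cofactors and 23 as TGF-beta genes with the matrix proteins linked to that pathway, and the rule itself uses no measured value. Of these, 45 carried the listed name, and Ctgf and Cyr61 were found under the newer names Ccn2 and Ccn1, which are used below. All samples came from a single 3T3 clone, mouse embryonic fibroblasts labelled malignant and carrying a lentiviral cassette in which a doxycycline-inducible promoter drives human PARG (hPARG), the glycohydrolase that removes poly(ADP-ribose), together with the fluorescent protein mClover3. The 3 hPARG dishes received 500 ng/ml doxycycline for 72 h, the 3 control dishes received none, and the cassette and the puromycin medium were common to both groups. The paper's methods describe this design, while its discussion and data statement call the control cells non-transfected. The methods also name the sequenced clone without mClover3. Doxycycline and hPARG changed together, so their effects cannot be told apart. The sample labels speak of wells of a 6-well plate and the methods of dishes, and they are called dishes below. Every gene in the table is a mouse gene, so the level of the hPARG transgene was not measured here.

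Actin filaments and myosin II generate the tension of a fibroblast. SRF, together with the myocardin-related factors Mrtfa and Mrtfb that are released when free actin monomers become scarce, switches on many of the genes that build these filaments. TGF-beta is secreted in a latent form held by binding proteins, and once freed it acts through a pair of receptors and the Smad proteins. In many fibroblasts it induces matrix proteins and the smooth muscle form of actin, the state called a myofibroblast.

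Count totals lay between 21619908 and 25263818 per dish, and 11509 genes had enough counts to be tested with edgeR. Dishes numbered 2 stood apart from the others on the first principal component, at 21.6 in control and 24.7 in hPARG against -27.4 to -3.17 for the other 4 dishes. The differences that stand out below are therefore given with and without them. Of the fibroblast markers, 7 of 9 reached an RPKM of 1 (reads normalized to exon length and library size, the authors' values), with their summed level between 3065 and 3494 RPKM in control and between 3241 and 3715 RPKM in hPARG dishes. Vim and Col1a2 were high, while Fap had at most 1 count in a dish and Pdgfrb at most 0.883 RPKM. Of the 5 markers of mature smooth muscle, Myh11 had at most 3 counts and Lmod1 at most 5, and the list summed to between 14.5 and 19.4 RPKM in control and between 14.5 and 18.4 RPKM in hPARG dishes, most of it Smtn, with Des at 1.20 to 1.83 RPKM. The summed levels of the skeletal muscle, epithelial and endothelial lists stayed under 0.464 RPKM in each dish. The macrophage list summed to between 5.59 and 6.22 RPKM in control and between 3.84 and 5.74 RPKM in hPARG dishes, mostly from Cd14, with Adgre1 at 0 counts in each dish.

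Levels of the members ran from the cytoplasmic actin Actb, among the most abundant RNA of the table, to a smooth muscle set (Acta2, Actg2, Tagln, Cnn1 and Myl9) that was almost silent, with most members between, so the word contractile covers the nonmuscle genes here. None of the 41 members that passed the filter on low counts differed between hPARG cells and control at an FDR (Benjamini-Hochberg adjusted p over all tested genes) under 0.05, beside 0.0869% of all tested genes (10 of 11509). The fitted log2 fold changes of hPARG over control lay between -0.46 (Ltbp2) and 0.40 (Fn1), with a median of 0.07 over the members and 0.0038 over all tested genes. For 40 of the 41 the 95% interval stayed inside a 2-fold difference in either direction, as it did for 90.8% of all tested genes, and the exception was Fn1. The remaining 6 members, Actg2, Tagln, Cnn1, Myl9, Postn and Tgfbi, had too few counts to be tested. RNA of a whole dish was measured, so a change in the number of cells in a given state and a change in RNA per cell cannot be told apart.

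**Figure D1:**
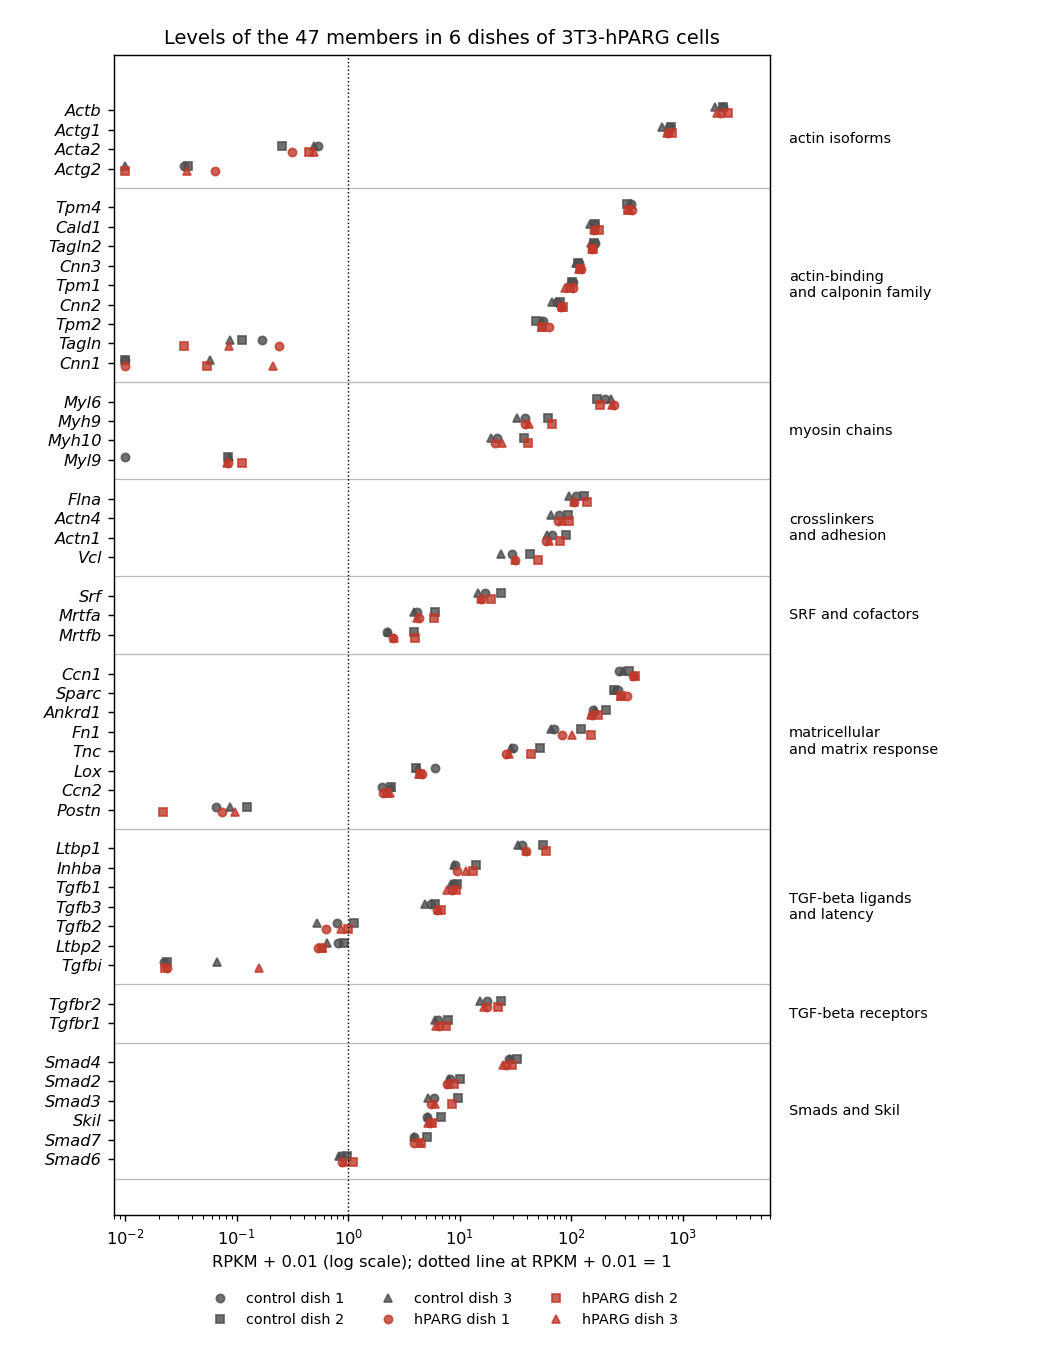
Level of each of the 47 members in each dish, as RPKM + 0.01 on a log scale, grouped by role (grey, control; red, hPARG; circles, squares and triangles mark dishes 1, 2 and 3). Actb and Actg1 lie furthest to the right, 10 members have a mean below 1 RPKM, and the red and grey points of a gene mostly lie on each other.

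Among the actins, which form the filaments themselves, the cytoplasmic isoforms Actb (ENSMUSG00000029580, chromosome 5, 142903115 to 142906754 in GRCm38, as are all positions below) and Actg1 (ENSMUSG00000062825, chromosome 11, 120345690 to 120348542) had levels of 1963 to 2518 RPKM and 654 to 792 RPKM across the 6 dishes. Actb ranked 18 in the whole table by mean RPKM. Smooth muscle alpha-actin Acta2 (ENSMUSG00000035783, chromosome 19, 34241090 to 34255590) lay at 0.244 to 0.531 RPKM, and smooth muscle gamma-actin Actg2 at 0 to 0.0536 RPKM. The ranges of Actb, Actg1, Acta2 and Actg2 did not overlap, so the order of the 4 levels was the same in each dish. Of the summed RPKM of the 4 genes, Actb made up 75.1% ± 0.34 in control and 74.9% ± 1.12 in hPARG cells and Acta2 0.0146% ± 0.0058 and 0.0137% ± 0.00357 (SD, n = 3). The annotated transcripts of Actg1 share 29.9% of their 100-base words with those of 6 other genes, chiefly Gm12715, so reads may be split there, whereas those of Acta2 and Actg2 share none.

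Actb had 5249, 5169 and 4695 CPM in control dishes 1 to 3 and 5134, 5787 and 4902 CPM in hPARG dishes 1 to 3 (CPM, counts scaled to library size with TMM factors). The highest and the lowest control dish enclosed hPARG dishes 1 and 3, and hPARG dish 2 was above all others. On the log2 scale the difference of hPARG over control was 0.07 (SE 0.126, 95% interval -0.22 to 0.36, FDR = 0.999), where SE is the standard error. Actg1 had 1858, 1898 and 1701 CPM in control dishes 1 to 3 and 1876, 1979 and 1888 CPM in hPARG dishes 1 to 3, with a log2 fold change of 0.07 (SE 0.107, 95% interval -0.17 to 0.32, FDR = 0.999). The groups overlapped for both cytoplasmic actins.
Acta2, the usual marker of myofibroblasts, had 32, 13 and 25 counts in control dishes 1 to 3 and 16, 25 and 26 counts in hPARG dishes 1 to 3, with 0.559 CPM in the lowest dish. Control dish 2 was the lowest and the groups overlapped. Its log2 fold change of -0.02 (SE 0.379, 95% interval -0.89 to 0.86, FDR = 0.999) had the widest standard error of all tested members. Actg2 had 1, 1 and 0 counts in control dishes 1 to 3 and 2, 0 and 1 counts in hPARG dishes 1 to 3, at or under the floor of 3 counts in every dish, so no fold is given.

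The actin-binding genes also had abundant nonmuscle and nearly silent smooth muscle forms. Tagln2, Cnn2 and Cnn3, the transgelin and calponins found outside muscle, lay at 151 to 162 RPKM, 67.5 to 84.4 RPKM and 109 to 123 RPKM. Their smooth muscle counterparts Tagln (SM22-alpha) and Cnn1 (basic calponin) lay at 0.0236 to 0.231 RPKM and 0 to 0.2 RPKM. Tagln had 7, 4 and 3 counts in control dishes 1 to 3 and 9, 1 and 3 counts in hPARG dishes 1 to 3, and 67.9% of its exon bases lie opposite exons of Pcsk7 and Gm48529 on the other strand, from which its reads cannot be told apart if strand was not used in counting. Cnn1 had 0, 0 and 3 counts in control dishes 1 to 3 and 0, 3 and 13 counts in hPARG dishes 1 to 3. With 13 counts in hPARG dish 3 and at most 3 in each other dish, Cnn1 was carried by a single library. Tropomyosins lie along the filament and govern access to it. Among the member tropomyosins, Tpm4 (315 to 351 RPKM) was above Tpm1 (88.4 to 105 RPKM) and Tpm1 above Tpm2 (48.7 to 62.96 RPKM) in each dish. Tpm3, which is not a member, lay between Tpm4 and Tpm1 at 142 to 170 RPKM.

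Cnn2, Cnn3 and Cald1 were the actin-myosin members whose hPARG dishes all lay above the control dishes, 3 of the 20 tested. Over all tested genes the groups did not overlap for 9.62%, and for 3.61% the hPARG dishes were all above. Cnn2 (ENSMUSG00000004665, chromosome 10, 79988584 to 79996062) had 197, 202 and 186 CPM in control dishes 1 to 3 and 219, 223 and 230.2 CPM in hPARG dishes 1 to 3. That gives a log2 fold change of 0.20 (SE 0.0901, 95% interval -0.01 to 0.41, FDR = 0.999), and 0.24 (FDR = 0.568) without the dishes numbered 2. Cnn3 had 282, 266 and 273 CPM in control dishes 1 to 3 and 302, 289 and 297 CPM in hPARG dishes 1 to 3. Its log2 fold change was 0.11 (SE 0.0888, 95% interval -0.09 to 0.32, FDR = 0.999), and 0.11 (FDR = 0.882) without the dishes numbered 2. Of its exon bases 17.7% lie opposite those of Gm42928. Caldesmon (Cald1), which binds actin and myosin, had 903, 895 and 860.2 CPM in control dishes 1 to 3 and 925, 995 and 938 CPM in hPARG dishes 1 to 3. Its log2 fold change was 0.10 (SE 0.0982, 95% interval -0.12 to 0.33, FDR = 0.999), and 0.08 (FDR = 0.951) without the dishes numbered 2. The largest of the 3 differences, that of Cnn2, was 1.15-fold. The other tested genes of this group gave log2 fold changes of 0.01 (Tagln2), -0.04 (Tpm1), 0.14 (Tpm2) and 0.05 (Tpm4), with overlapping dishes.

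Myosin II of nonmuscle cells is built from the heavy chains Myh9 and Myh10 and from light chains. Myh9 lay at 32.5 to 67.2 RPKM and Myh10 at 19.01 to 40.5 RPKM, and Myh9 made up 63.1% ± 1.09 of their summed RPKM in control and 63.6% ± 1.43 in hPARG cells (SD, n = 3). The essential light chain Myl6 was far higher per length, at 169 to 242 RPKM. The regulatory light chain Myl9, which smooth muscle uses, was almost absent, with 0, 2 and 2 counts in control dishes 1 to 3 and 2, 3 and 2 counts in hPARG dishes 1 to 3. Its nonmuscle relative Myl12a lay at 65.3 to 76.4 RPKM. The log2 fold changes of hPARG over control were 0.19 (SE 0.267, FDR = 0.999) for Myh9, 0.16 (SE 0.304, FDR = 0.999) for Myh10 and 0.16 (SE 0.175, FDR = 0.999) for Myl6. The dishes numbered 2 stood out in these genes. Myh9 had 310.2, 487 and 274 CPM in control dishes 1 to 3 and 319, 544 and 354 CPM in hPARG dishes 1 to 3, with dish 2 the highest of each group. Myl6 showed the opposite order, with 418, 339.7 and 491 CPM in control dishes 1 to 3 and 514, 375 and 505 CPM in hPARG dishes 1 to 3, and dish 2 was the lowest of each group.

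The crosslinkers and adhesion proteins were all expressed, with Flna (filamin A) at 95.3 to 137 RPKM, Actn4 at 66.4 to 96.3 RPKM, Actn1 at 59.8 to 89.9 RPKM and vinculin (Vcl) at 23.3 to 50.5 RPKM. In all 4 genes dish 2 was the highest of its group. Vcl (ENSMUSG00000021823, chromosome 14, 20929398 to 21033676) had 170.0, 241 and 141 CPM in control dishes 1 to 3 and 186, 293 and 192 CPM in hPARG dishes 1 to 3. It was higher in hPARG cells in each same-numbered pair, but the groups overlapped, with both dishes numbered 2 far above the rest. The replicate numbers mark no known batch, so comparing same-numbered dishes is only a description here and below. The log2 fold change of Vcl was 0.28 (SE 0.241, 95% interval -0.28 to 0.84, FDR = 0.999), and 0.29 (FDR = 0.510) without the dishes numbered 2. With a single dish left out it ranged from 0.04 (without hPARG dish 2) to 0.53 (without control dish 2). Opposite strand exons of Ap3m1 cover 25.5% of its exon bases. Flna, Actn1 and Actn4 gave log2 fold changes of 0.09 (SE 0.142, FDR = 0.999), -0.06 (SE 0.158, FDR = 0.999) and 0.14 (SE 0.134, FDR = 0.999).

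**Figure D2:**
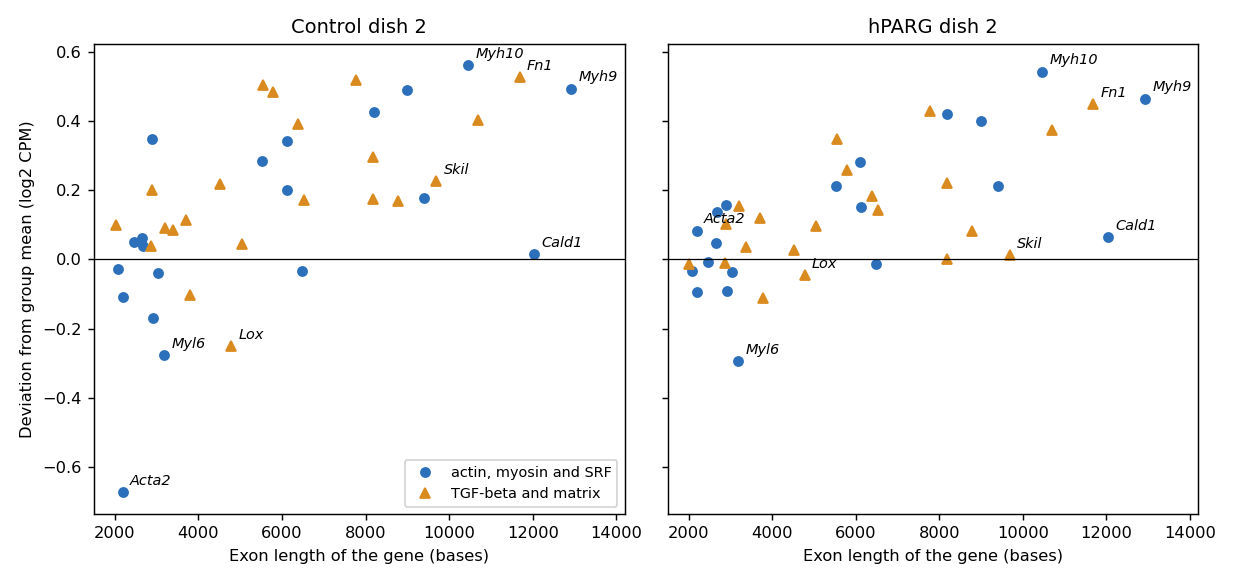
Deviation of control dish 2 (left) and hPARG dish 2 (right) from the mean of its group in log2 CPM, against the exon length of the gene in bases, for the 41 tested members (blue circles, actin, myosin and SRF; orange triangles, TGF-beta and matrix). Long genes such as Myh9, Myh10 and Fn1 lie high and the shorter Myl6 low in both panels. Other short genes lie on either side of the group mean, and Acta2 lies at the bottom in the left panel only.

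The deviation of dishes numbered 2 followed exon length among the members. Spearman's rho between exon length and deviation over 41 members was 0.62 for control dish 2 and 0.605 for its hPARG counterpart, and 0.53 and 0.521 over all tested genes. The genes of a dish share its library, so these values are a description. For the 12 tested members with more than 8000 exon bases the median deviation was 0.35 and 0.30 on the log2 scale, and for the 17 with fewer than 4000 it was 0.04 and -0.01. Of the 41 members, 29 were above their group mean in both dishes numbered 2, 8 were below in both (Tagln2, Cnn3, Tpm1, Tpm2, Tpm4, Myl6, Sparc and Lox) and 4 differed in sign. Myh10, with 10458 exon bases, deviated by 0.56 in control dish 2 and 0.54 in hPARG dish 2. Myl6, with 3187 bases, deviated by -0.28 in control dish 2 and -0.29 in hPARG dish 2. These deviations exceeded the differences between hPARG and control for the same genes.

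SRF itself was present at 14.7 to 23.6 RPKM, above its cofactors Mrtfa at 3.91 to 6.01 RPKM and Mrtfb at 2.20 to 3.98 RPKM. Srf (ENSMUSG00000015605, chromosome 17, 46548329 to 46556175) had 46.8, 64.6 and 43.03 CPM in control dishes 1 to 3 and 44.8, 53.6 and 46.1 CPM in hPARG dishes 1 to 3. Control dish 2 was the highest and the other 5 dishes lay between 43.03 and 53.6 CPM. Its log2 fold change was -0.10 (SE 0.166, 95% interval -0.48 to 0.29, FDR = 0.999), and 0.02 (FDR = 0.992) without the dishes numbered 2. Mrtfa had 21.7, 30.8 and 21.5 CPM in control dishes 1 to 3 and 23.01, 30.9 and 23.03 CPM in hPARG dishes 1 to 3, a log2 fold change of 0.05 (SE 0.185, FDR = 0.999). Mrtfb had 21.2, 36.6 and 22.7 CPM in control dishes 1 to 3 and 24.7, 38.5 and 26.1 CPM in hPARG dishes 1 to 3, a log2 fold change of 0.15 (SE 0.250, FDR = 0.999). In both cofactors the same-numbered hPARG dish was the higher in each of 3 pairs, with the groups overlapping. For Mrtfa the dishes numbered 2 were nearly equal, at 30.8 CPM in control and 30.9 CPM in hPARG.

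SRF binds the CArG box, an A/T-rich core of 6 bases between a CC and a GG. RefSeq promoter windows (GRCm38), each from 250 bases before to 50 after the gene start, were found for 36 of the 47 members, 21 of them actin-myosin genes. The CArG box, read on both strands since its reverse complement is again one, was counted only with a core all of A or T. Looser forms with another base in the core, such as ccctatatgg in the Acta2 window, were not counted. The strict box was present in 6 of these 21 genes and in none of the 15 TGF-beta genes. Counted by window, since a gene can have several, 6 of the 45 member windows held it beside 1.63% of all 32851. These boxes are shown because they join genes of very different level. Each line gives the box in capitals with 10 bases on either side, 5′ to 3′ on the strand of the gene.
Actg1: ggaaagatcgCCATATATGGacatgttctg
Cnn2: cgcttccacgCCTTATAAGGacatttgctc
Myl6: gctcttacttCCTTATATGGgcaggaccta
Myl9: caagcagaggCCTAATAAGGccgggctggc
Vcl: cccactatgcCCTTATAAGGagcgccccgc
Srf, upstream box: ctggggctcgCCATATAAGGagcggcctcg
Srf, downstream box: agcggcctcgCCATAAAAGGaaacattgta
The boxes start at -90 (Actg1), -56 (Cnn2), -50 (Myl6), -161 (Myl9), -227 (Vcl) and -82 and -62 (Srf) relative to the gene start. The boxes of Cnn2 and Vcl had the same 10 letters. Levels of these 6 genes ran from 654 to 792 RPKM for Actg1 down to 0 to 0.102 RPKM for Myl9, and the 5 that were tested gave log2 fold changes from -0.10 (Srf) to 0.28 (Vcl), with a median of 0.16. A match is only a match of letters and says nothing of binding.

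The whole windows of Srf and Myl9 are given next, since Srf held 2 boxes and was expressed while Myl9 held 1 and was nearly silent. The Srf window is chr17:46556113-46556412 (GRCm38, minus strand) and the Myl9 window chr2:156775214-156775513 (plus strand), with the CArG boxes in capitals.
Srf: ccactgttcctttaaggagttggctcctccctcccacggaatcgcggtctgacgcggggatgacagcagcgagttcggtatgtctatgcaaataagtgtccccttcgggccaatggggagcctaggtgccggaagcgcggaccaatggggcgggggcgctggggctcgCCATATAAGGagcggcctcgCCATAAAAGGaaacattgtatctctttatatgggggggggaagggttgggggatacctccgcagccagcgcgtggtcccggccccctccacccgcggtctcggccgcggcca
Myl9: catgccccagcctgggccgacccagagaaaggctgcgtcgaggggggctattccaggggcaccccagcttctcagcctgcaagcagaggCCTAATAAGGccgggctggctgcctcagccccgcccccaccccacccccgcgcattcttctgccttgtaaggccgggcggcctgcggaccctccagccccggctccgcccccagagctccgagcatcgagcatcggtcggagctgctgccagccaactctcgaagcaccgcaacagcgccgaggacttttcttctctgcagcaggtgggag

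The matrix and matricellular genes contained the member with the smallest p. Ccn1 (Cyr61, ENSMUSG00000028195, chromosome 3, 145646976 to 145649981), a secreted protein that binds integrins and is a classical target of YAP and TEAD, was the third highest member at 270.4 to 376 RPKM. It had 585, 690.1 and 662 CPM in control dishes 1 to 3 and 799.7, 816 and 855 CPM in hPARG dishes 1 to 3. All hPARG dishes were above all control dishes. The fold was 1.27, a log2 fold change of 0.35 (SE 0.108, 95% interval 0.10 to 0.60, FDR = 0.927), with an unadjusted p of 0.0121, and the log2 fold change was 0.41 (FDR = 0.228) without the dishes numbered 2. With each dish left out in turn it ranged from 0.29 to 0.40. Its relative Ccn2 (Ctgf, ENSMUSG00000019997, chromosome 10, 24595442 to 24598683), the best known TGF-beta target of this family, was far lower per length, at 2.01 to 2.39 RPKM. Exons of Gm15270 on the other strand cover 23.2% of the exon bases of Ccn2. Ccn2 had 6.17, 7.14 and 7.64 CPM in control dishes 1 to 3 and 6.37, 6.88 and 7.61 CPM in hPARG dishes 1 to 3, the groups overlapped and the log2 fold change was -0.0033 (SE 0.143, 95% interval -0.33 to 0.33, FDR = 0.999). Its 95% interval and that of Ccn1 overlapped, and the difference between them was not tested.

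The promoter window of Ccn1, chr3:145649936-145650235 (GRCm38, minus strand), held no CArG box and 1 TEAD match, in capitals. The TEAD letters searched were GGAATG and, on the other strand, CATTCC, which stood in 11 of the 45 member windows and in 14.7% of all windows.
Ccn1: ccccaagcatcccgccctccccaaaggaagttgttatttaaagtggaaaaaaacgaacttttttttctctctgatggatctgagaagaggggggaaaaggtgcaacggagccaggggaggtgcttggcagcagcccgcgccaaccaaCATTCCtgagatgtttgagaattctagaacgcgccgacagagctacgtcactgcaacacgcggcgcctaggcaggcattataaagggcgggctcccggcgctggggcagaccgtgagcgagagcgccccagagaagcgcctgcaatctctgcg
The match starts at -103. Of the 11 member genes with a TEAD match 9 were actin-myosin genes, and the other 2 were Ccn1 and Ankrd1. Ankrd1 had matches at -210 and -123 and was fitted lower in hPARG cells, at -0.10 on the log2 scale. The palindromic SMAD element GTCTAGAC was found in 1 of the 45 member windows, that of Smad6, and in 0.213% of all windows.

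Sparc, a collagen-binding matrix protein, had 772, 683 and 749.7 CPM in control dishes 1 to 3 and 954, 809.7 and 867 CPM in hPARG dishes 1 to 3. Its hPARG dishes were also all above the control dishes, by a log2 fold change of 0.26 (SE 0.112, 95% interval -0.0046 to 0.51, FDR = 0.999) and of 0.26 (FDR = 0.618) without the dishes numbered 2. Fibronectin (Fn1, ENSMUSG00000026193, chromosome 1, 71585520 to 71653200) had 649, 1108 and 634 CPM in control dishes 1 to 3 and 776, 1389.8 and 979.5 CPM in hPARG dishes 1 to 3. Control dish 2 was above hPARG dishes 1 and 3, and the same-numbered hPARG dish was the higher in each pair. Its log2 fold change of 0.40 (SE 0.278, 95% interval -0.25 to 1.04, FDR = 0.999) was the largest increase fitted among the members. Without the dishes numbered 2 the log2 fold change of Fn1 was 0.46 (FDR = 0.229), but with a single dish left out it ranged from 0.14 (without hPARG dish 2) to 0.71 (without control dish 2). Fn1 has 11685 exon bases and deviated by 0.53 in control dish 2 and 0.45 in hPARG dish 2 from the group means.

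Tenascin C (Tnc) had 251, 428 and 248 CPM in control dishes 1 to 3 and 221, 362 and 243 CPM in hPARG dishes 1 to 3, lower in hPARG in each same-numbered pair, with a log2 fold change of -0.17 (SE 0.262, FDR = 0.999). Ankrd1, an ankyrin repeat protein that responds to mechanical load and YAP, lay at 150.2 to 205 RPKM and gave -0.10 (SE 0.122, FDR = 0.999) on the log2 scale. The collagen crosslinker Lox gave -0.07 (SE 0.158, FDR = 0.999) at 4.07 to 5.98 RPKM. Periostin (Postn), which is usually abundant in activated fibroblasts, was nearly absent with 5, 9 and 6 counts in control dishes 1 to 3 and 5, 1 and 7 counts in hPARG dishes 1 to 3. Tgfbi, named for its induction by TGF-beta, was similarly low with 1, 1 and 4 counts in control dishes 1 to 3 and 1, 1 and 11 counts in hPARG dishes 1 to 3. As in Cnn1, the highest count of Tgfbi came from hPARG dish 3.

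**Figure D3:**
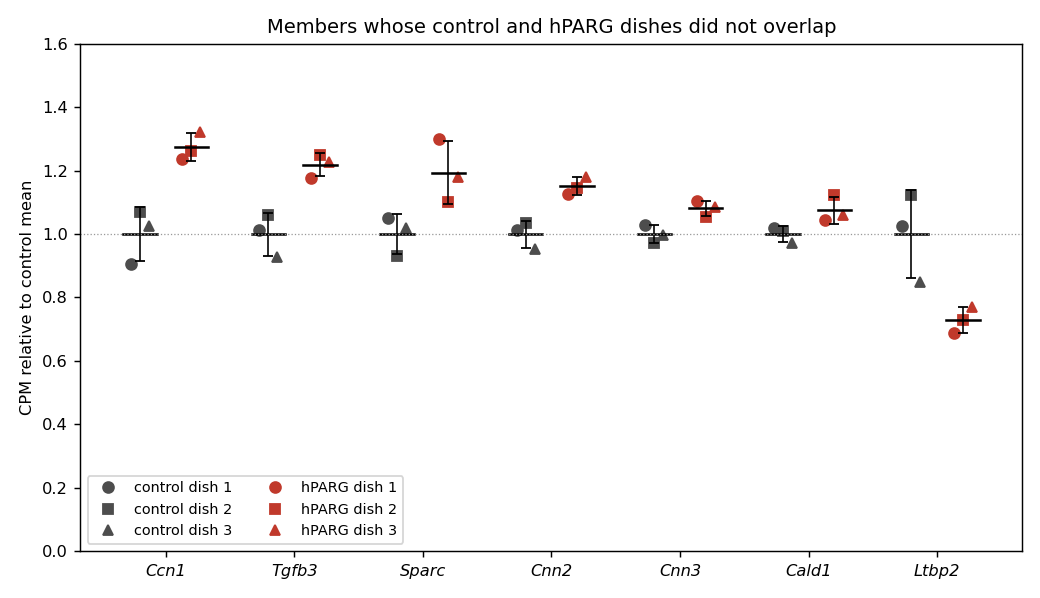
CPM relative to the control mean (linear scale from 0) for the 7 members whose control (grey) and hPARG (red) dishes did not overlap. Symbols mark dishes 1, 2 and 3, horizontal lines the means and bars the SD over 3 dishes, and 6 genes lie above and Ltbp2 below the control mean.

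Of the TGF-beta ligands, Tgfb1 was the highest at 7.62 to 9.40 RPKM, followed by Tgfb3 at 4.86 to 6.82 RPKM and Tgfb2 at 0.510 to 1.11 RPKM, and this order held in each dish. Tgfb1 (ENSMUSG00000002603, chromosome 7, 25687002 to 25705077) had 23.03, 23.8 and 22.4 CPM in control dishes 1 to 3 and 22.8, 24.2 and 20.96 CPM in hPARG dishes 1 to 3. The dishes of both groups overlapped, and the log2 fold change was -0.03 (SE 0.102, 95% interval -0.26 to 0.21, FDR = 0.999). Tgfb3 (ENSMUSG00000021253, chromosome 12, 86056745 to 86079041) had 20.1, 21.03 and 18.4 CPM in control dishes 1 to 3 and 23.4, 24.8 and 24.4 CPM in hPARG dishes 1 to 3. The lowest hPARG dish of Tgfb3 was above the highest control dish, a 1.22-fold difference, or 0.29 (SE 0.101, 95% interval 0.05 to 0.52, FDR = 0.999) on the log2 scale with an unadjusted p of 0.0234. Without the dishes numbered 2 the log2 fold change was 0.31 (FDR = 0.510). Opposite strand genes cover 12.4% of the exon bases of Tgfb3. As a share of the summed RPKM of the 3 ligands, Tgfb3 went from 36.1% ± 0.445 in control to 41.2% ± 1.52 in hPARG cells and Tgfb1 from 58.7% ± 1.79 to 53.6% ± 2.01 (SD, n = 3). For both shares the groups did not overlap. With 3 dishes against 3 this fixes the two-sided exact permutation p at 0.1 (2 shares tested), the smallest possible. The p therefore adds nothing to the lack of overlap. Both shares are parts of the same sum, so they are not separate results. For Tgfb2 the log2 fold change came to 0.07 (SE 0.281, FDR = 0.999).

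Inhba, the subunit of activin A, had 61.5, 93.5 and 63.1 CPM in control dishes 1 to 3 and 66.7, 89.5 and 82.1 CPM in hPARG dishes 1 to 3, and its level was 8.83 to 14.02 RPKM. The log2 fold change was 0.13 (SE 0.189, 95% interval -0.31 to 0.56, FDR = 0.999) with overlapping dishes. The latent TGF-beta binding protein Ltbp1 lay at 33.5 to 59.8 RPKM and its fibrillin-bound relative Ltbp2 at 0.524 to 0.901 RPKM, so Ltbp1 was the higher in each dish. Ltbp1 gave a log2 fold change of 0.17 (SE 0.219, FDR = 0.999). Ltbp2 (ENSMUSG00000002020, chromosome 12, 84783212 to 84876532) had 5.82, 6.37 and 4.81 CPM in control dishes 1 to 3 and 3.90, 4.12 and 4.36 CPM in hPARG dishes 1 to 3, and its hPARG dishes were all below the control dishes. Its log2 fold change of -0.46 (SE 0.160, 95% interval -0.83 to -0.09, FDR = 0.999) was the largest decrease fitted among the members, with an unadjusted p of 0.0218, and -0.36 (FDR = 0.833) without the dishes numbered 2. Another gene, D030025P21Rik, covers 9.34% of the exon bases of Ltbp2 on the other strand.

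Both TGF-beta receptors were expressed, Tgfbr2, which binds the ligand, at 15.2 to 23.3 RPKM and Tgfbr1, the kinase that signals to Smads, at 6.01 to 7.79 RPKM. Tgfbr2 had 154, 199 and 139.5 CPM in control dishes 1 to 3 and 157, 195 and 153 CPM in hPARG dishes 1 to 3, with dish 2 the highest of each group. The log2 fold changes were 0.04 (SE 0.161, 95% interval -0.34 to 0.41, FDR = 0.999) for Tgfbr2 and 0.02 (SE 0.119, 95% interval -0.25 to 0.30, FDR = 0.999) for Tgfbr1. Among the signal transducers the common Smad4 was the highest at 24.6 to 32.9 RPKM. The receptor-activated Smad2 (7.65 to 10.00 RPKM) and Smad3 (5.15 to 9.69 RPKM) overlapped in range, though Smad2 was the higher in each dish. Their log2 fold changes were -0.11 (SE 0.105, FDR = 0.999) for Smad4, -0.06 (SE 0.111, FDR = 0.999) for Smad2 and -0.0043 (SE 0.244, FDR = 0.999) for Smad3.

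The inhibitory Smad7, which TGF-beta itself induces in many cells, had 18.03, 23.1 and 18.8 CPM in control dishes 1 to 3 and 18.8, 20.9 and 21.97 CPM in hPARG dishes 1 to 3. Control dish 2 was the highest of all and the groups overlapped, with a log2 fold change of 0.04 (SE 0.131, 95% interval -0.26 to 0.34, FDR = 0.999). Smad6, its relative in BMP signalling, was lower at 0.808 to 1.08 RPKM and gave 0.16 (SE 0.179, FDR = 0.999) on the log2 scale. Skil (SnoN), a repressor of Smad-driven transcription, lay at 5.11 to 6.81 RPKM and gave -0.04 (SE 0.121, FDR = 0.999). Across the Smads and Skil 2 genes were above and 4 below 0 in log2 fold change, and the largest difference in size was that of Smad6.

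**Figure D4:**
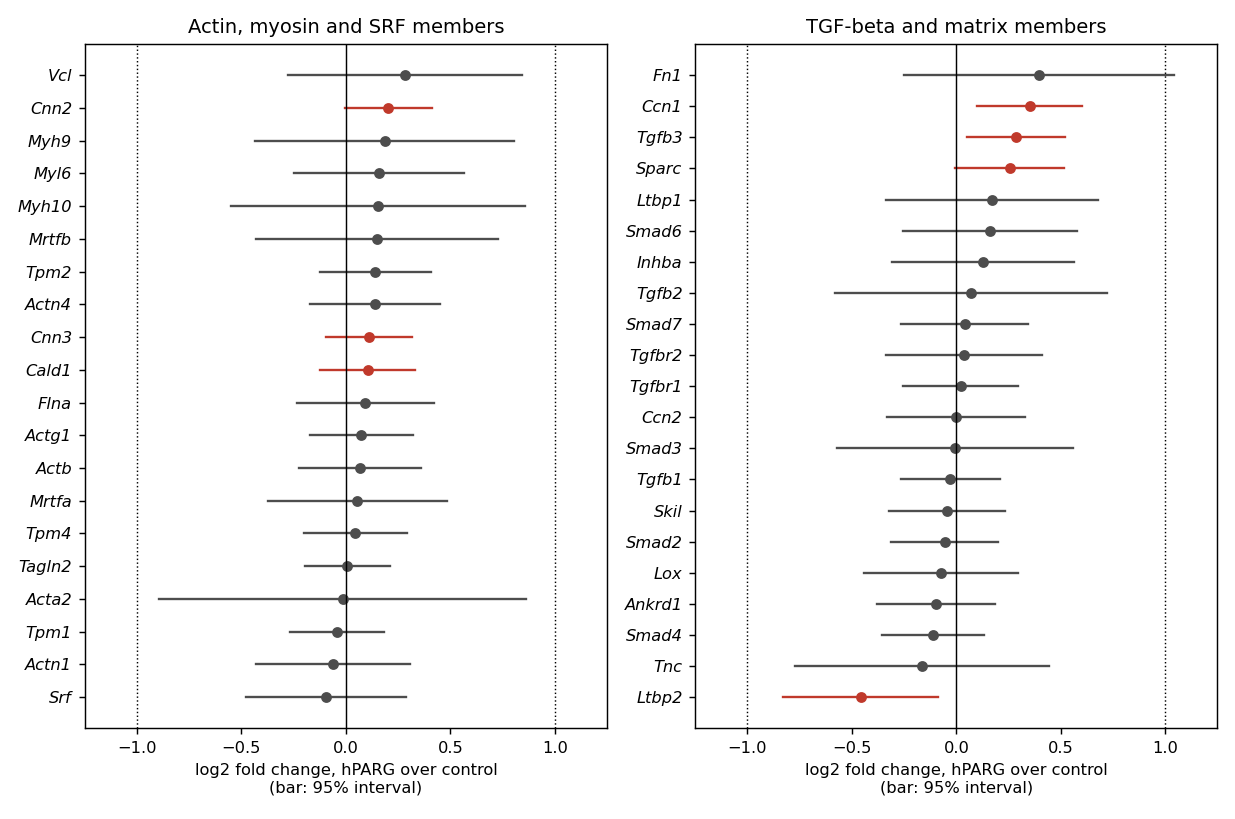
Log2 fold change of hPARG over control with its 95% interval for the 20 tested actin, myosin and SRF members (left) and the 21 tested TGF-beta and matrix members (right), in order of size, with dotted lines at 2-fold. Members whose dishes did not overlap are red, and only the intervals of Ccn1, Tgfb3 and Ltbp2 leave out 0.

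By group, 16 of the 20 tested actin-myosin members were fitted higher and 4 lower in hPARG cells, with a median log2 fold change of 0.10, and 11 of the 21 tested TGF-beta members higher and 10 lower, with a median of 0.02. Over all tested genes 50.9% were fitted higher. These genes share dishes and, through exon length, the deviation of dishes numbered 2, so the counts are a description. In 6 members all hPARG dishes were above control (Cnn2, Cnn3, Cald1, Ccn1, Sparc and Tgfb3) and in 1 all were below (Ltbp2), together 17.1% of the tested members beside 9.62% of all tested genes. At an unadjusted p under 0.05 there were 3 members (Ccn1, Tgfb3 and Ltbp2), 7.32% beside 3.95% of all tested genes, with 2 higher (1.42% of all tested genes) and 1 lower (2.54%) in hPARG cells. That count was 0 without control dish 1 (3.07% of all tested genes in the same fit), 5 without control dish 2 (12.2% of members beside 4.95%), 2 without any other single dish (4.88% of members beside 2.25% to 3.84%) and 7 without both dishes numbered 2 (17.1% of members beside 6.78%). With the replicate number added to the fit as a block, 4 members passed the FDR (Vcl, Ccn1, Fn1 and Sparc) beside 2.87% of all tested genes, and 6 (also Cnn2 and Tgfb3) beside 4.08% with a correction for exon length as well. In no fit without the block was a member called.

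Genes of the same pathways outside the 47 were read from 3 lists, of which 60 of 61 genes were found under their name. None of the 52 tested genes passed the FDR, and 2 had an unadjusted p under 0.05, 3.85% beside 3.95% of all tested genes. Of 27 other actin, myosin and SRF target genes 21 were tested, 15 fitted higher and 6 lower, from -0.19 (Filip1l) to 0.39 (Mylk, the kinase of myosin light chains). The monomer-binding proteins Pfn1 and Cfl1 were high at 757 to 929 RPKM and 389.5 to 467 RPKM. The muscle genes Acta1, Myh11 and Lmod1 had at most 5 counts in a dish. Actc1 had 24 counts in control dish 3 and at most 5 in each other dish. Of 22 other TGF-beta genes 20 were tested, 12 higher and 8 lower, from -0.31 (Fst, the activin-binding follistatin, FDR = 0.999) to 0.40 (Thbs1, which can activate latent TGF-beta, FDR = 0.999). All 11 YAP and TEAD genes were tested, 7 higher and 4 lower, from -0.41 (Nt5e) to 0.34 (Crim1), and none passed the FDR. Nt5e had 29, 6 and 3 counts in control dishes 1 to 3 and 6, 11 and 10 counts in hPARG dishes 1 to 3 (SE 0.726). Control dish 1 was thus far above the others and control dish 3 at the floor, and the next lowest gene was Ajuba at -0.14.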

How the data were processed

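The 6 poly(A) libraries (3 control, 3 hPARG, dishes of 1 clone) were sequenced as paired-end reads, trimmed and mapped by the authors in CLC Genomics Workbench to the mouse genome GRCm38 with Ensembl gene models. Use of strand in counting is not given in the sources used here. The authors deposited counts per gene, whole numbers without normalization, which were used for all tests, and RPKM values, used to compare levels between genes. Their TPM, CPM and comparison columns (fold changes, p-values) were not used.

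Genes passing filterByExpr (minimum count 10) were TMM-normalized, and the groups were compared by the quasi-likelihood test (edgeR 4.0.16 under R 4.3.3) without a block. FDR values cover all 11509 tested genes, standard errors are the absolute log2 fold change over the square root of F, and intervals are 95%. CPM are TMM-scaled. The floor is 3 counts (0.119 to 0.139 CPM), for counting error only. With 3 dishes of 1 clone a group, p-values measure the spread between dishes. No libraries agreed within counting noise. Fits were tested on simulated data.

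The rule names the members without using values, but members and lists were chosen with earlier results of these data known. All members are named. Values in every dish are given for members that do not overlap between groups and for 15 genes of a fixed list (Ccn1 is in both), and other pathway genes by the highest and lowest fold change. Genomic positions and exon lengths are from GENCODE M21, promoters from RefSeq (GRCm38). Alternatives were RLE, library size only, DESeq2 1.42.0, the likelihood ratio test, other filters, the replicate block, a correction for exon length (splines with 4 degrees of freedom) and dishes left out. Per-dish values of Myh9, Myl6, Vcl, Fn1, Tnc, Myl9, Postn and Tgfbi were added after their values were seen.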

Additional observations from a re-analysis of the deposited data

How the results depend on the processing

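Against 10 genes called at FDR under 0.05 (11509 tested), 48 were called with DESeq2, 65 with the likelihood ratio test, 16 with no filter, 23 with the exon length correction, 40 without both dishes numbered 2 and 3 to 13 with each dish left out in turn, with 3 without hPARG dish 1 and 5 without hPARG dish 3. In none of these was a member or another listed pathway gene called. The labels' replicate numbers do not mark a known batch. After subtraction of group means, dishes with the same number had r = 0.0963, 0.61 and 0.168 over genes, and control dish 1 and control dish 3 correlated best with another number, so the block is a second fit only. With the replicate block 330 genes were called (2.87%), among them 1 actin-myosin member (Vcl, log2 fold change 0.29), 3 TGF-beta members (Ccn1 0.35, Fn1 0.40, Sparc 0.25) and 5 other pathway genes. With the block and the exon length correction 469 were called (4.08%), with 2 (Vcl and Cnn2), 4 (Ccn1, Fn1, Sparc and Tgfb3) and 6 of these. The fit with the block counts the shared deviation of dishes numbered 2 as a replicate effect (biological coefficient of variation 0.0615 against 0.148).

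Of the 41 tested members 17 kept the sign of their log2 fold change in every alternative. The other 24, none above 0.19 in size, changed it with some dish left out, and their values over the 6 fits that leave out a dish ranged from -0.0063 to 0.12 for Actb, -0.30 to 0.20 for Acta2, -0.012 to 0.030 for Tagln2, -0.0065 to 0.091 for Tpm4, -0.086 to 0.48 for Myh9, -0.17 to 0.49 for Myh10, -0.022 to 0.19 for Flna, -0.18 to 0.096 for Actn1, -0.21 to 0.10 for Srf, -0.10 to 0.25 for Mrtfa, -0.080 to 0.44 for Mrtfb, -0.081 to 0.065 for Ccn2, -0.17 to 0.0088 for Ankrd1, -0.41 to 0.14 for Tnc, -0.19 to 0.12 for Lox, -0.079 to 0.025 for Tgfb1, -0.14 to 0.35 for Tgfb2, -0.042 to 0.40 for Ltbp1, -0.055 to 0.11 for Tgfbr1, -0.084 to 0.20 for Tgfbr2, -0.10 to 0.033 for Smad2, -0.20 to 0.29 for Smad3, -0.023 to 0.16 for Smad7 and -0.11 to 0.078 for Skil. Other changes of sign were to 0.017 for Acta2 and 0.012 for Smad3 (replicate block), to 0.038 for Acta2 and 0.031 for Ccn2 (exon length correction), to 0.051 for Acta2, 0.030 for Ccn2 and 0.010 for Smad3 (replicate block with exon length correction), to -0.021 for Tagln2 and -0.0073 for Tgfbr1 (library size only), to 0.021 for Srf, 0.028 for Ccn2, 0.10 for Smad3 and 0.076 for Skil (both dishes numbered 2 left out), to 0.0025 for Ccn2 and 0.0011 for Smad3 (RLE size factors), to 0.00092 for Ccn2 (DESeq2). The cause was not tested. Depth limits Actg2, Tagln, Cnn1, Myl9, Postn and Tgfbi, which had at most 13 counts in a dish.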

Other observations

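Relatives of 2 members were read after their values were seen. Of the CCN family beside Ccn1 and Ccn2, Ccn5, which lacks the C-terminal domain of its relatives, had 15.4, 13.2 and 14.99 CPM in the control dishes and 11.6, 8.24 and 9.63 CPM in the hPARG dishes. All its hPARG dishes lay below control, by a log2 fold change of -0.56 (SE 0.15, FDR = 0.717 by edgeR's quasi-likelihood test). Ccn5 was not called, nor was it without the dishes numbered 2 (-0.51, FDR = 0.233). With the replicate block it was called (FDR = 0.0112, and 0.00706 with the exon length correction as well). Ccn4 gave -0.10, Ccn3 had at most 1 count in a dish and Ccn6 was at 0 counts in each. The lysyl oxidases crosslink collagen and elastin. Loxl1 (28.5 to 38.8 RPKM), Loxl3 (6.23 to 7.61 RPKM) and Loxl4 (26.8 to 32.0 RPKM) were above Lox in each dish. Their log2 fold changes were 0.16, 0.10 and 0.08 with overlapping groups, while Loxl2 had at most 20 counts.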
